A study of Mus musculus with 28 samples.

Results

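The genes described here are the solute carriers that take bile acids and organic ions into cells: every gene whose name on the arrays begins with Slc10a, Slc22a, Slc47a or Slco followed by a number. This name rule used no measured value. It found 41 genes on 60 probes, of 28482 genes and 41174 probes in all: 6 of family Slc10, 19 of Slc22, 1 of Slc47 and 15 of Slco. Of the 41 genes, 33 were well above background in the sample channel on at least 2 of the 28 arrays and were tested among 21331 genes. Slc22a20, Slco4c1, Slco5a1, Slco6b1 and Slco6d1 were above background on no array, and Slc22a14, Slco1a6 and Slco6c1 on 1 array each.

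On each array, RNA of a C57BL/6 mouse sample carried the dye Cy3, and the dye Cy5 marked a mouse reference RNA sold by Stratagene. The undamaged liver samples were adult liver of wildtype mice (2 arrays), whole liver tissue (2), an isolated hepatocyte fraction (2) and duct cells sorted with the antibody Mic1-1c3 (2). Samples after injury by carbon tetrachloride (CCl4), a toxin that kills hepatocytes, were liver at day 3 (2) and day 13 (2) and Lgr5-sorted cells at day 6 (2). Liver organoids were grown from single cells isolated by Lgr5, a receptor of the Wnt pathway, and kept either in a medium for expansion (EM, 2 arrays) or in one for differentiation (DM, 1 array, with no replicate). Wildtype pancreas (2), muscle (3) and adipose tissue, white (3) and brown (3), completed the 13 groups. The labels name neither sex nor age of the animals, nor how many organoid lines were used.

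Hepatocytes draw bile acids, bilirubin, hormones and drugs from portal blood through carriers in their sinusoidal membrane. Slc10a1 (NTCP) cotransports bile acids with sodium, the Slco genes encode sodium-independent organic anion transporters (OATPs), Slc22 genes encode organic cation, carnitine and organic anion transporters, and Slc47a1 (MATE1) moves organic cations out of the cell in exchange for protons. Slc10a2 (ASBT) is the apical bile acid carrier of the ileum and of bile duct epithelium, where it returns bile acids from bile.

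Of the 41 genes, 34 matched a promoter in the RefSeq table (GRCm38.p6). The sequences are those of 3 carriers that were high together in the liver samples (Slco1b2, Slc10a1, Slco1a1) and of Slc10a2, which followed another pattern. Each line gives the 250 bases before the transcription start, 5′ to 3′ on the strand of the gene, with capitals for TATAAA or its reverse complement TTTATA, the letters of the TATA box, which positions the start of transcription in many tissue-specific genes. Slco1b2 lies on the plus strand at chr6:141629268-141629517, Slc10a1 on the minus strand at chr12:80968706-80968955 (the farther upstream of its 2 listed starts), Slco1a1 on the minus strand at chr6:141946963-141947212 and Slc10a2 on the minus strand at chr8:5105288-5105537.
Slco1b2: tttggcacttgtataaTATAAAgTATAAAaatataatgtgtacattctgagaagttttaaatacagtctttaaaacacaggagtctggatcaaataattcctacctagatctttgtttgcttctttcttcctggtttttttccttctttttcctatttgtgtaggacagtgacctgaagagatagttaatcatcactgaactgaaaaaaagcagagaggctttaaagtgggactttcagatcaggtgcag
Slc10a1: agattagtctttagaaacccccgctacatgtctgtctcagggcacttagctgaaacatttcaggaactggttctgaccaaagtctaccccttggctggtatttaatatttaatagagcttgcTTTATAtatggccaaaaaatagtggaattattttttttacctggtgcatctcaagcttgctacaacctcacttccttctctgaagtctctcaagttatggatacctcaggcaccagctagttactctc
Slco1a1: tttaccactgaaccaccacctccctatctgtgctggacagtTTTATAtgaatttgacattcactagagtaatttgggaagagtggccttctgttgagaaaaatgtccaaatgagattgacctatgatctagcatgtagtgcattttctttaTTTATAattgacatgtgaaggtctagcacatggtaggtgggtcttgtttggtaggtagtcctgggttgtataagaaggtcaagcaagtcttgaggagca
Slc10a2: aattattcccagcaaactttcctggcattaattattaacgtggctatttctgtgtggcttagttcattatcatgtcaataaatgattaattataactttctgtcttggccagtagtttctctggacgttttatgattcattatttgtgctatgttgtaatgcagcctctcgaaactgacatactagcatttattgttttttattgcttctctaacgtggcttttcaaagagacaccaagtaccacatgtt
The letters were present at positions -234 and -227 of Slco1b2, at -128 of Slc10a1 and at -209 and -99 of Slco1a1, counted from the start. They were not in the window of Slc10a2 or in that of the other listed start of Slc10a1. Nor were they in any listed window of Slco1a4, Slco2b1, Slc22a18 or Slc22a23, which were also high in the liver samples. The letters thus did not mark the liver carriers as a group. Over both strands the letters occurred in promoters of 5 of the 34 genes (also Slco1a5, and Slco2a1 at -29). They were in 12.4% of all 32851 promoter windows of this length. Matches of letters alone do not show a working TATA box, and whether any of these sites positions a start was not tested. The letters CAAAGTCCA for HNF4 (0.384% of all windows, both strands) and TTGCGCAA for C/EBP factors (0.164%) were found in none of the 34.

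Some arrays were much dimmer than others. Across all probes, 17.7 to 69.1% were above background, lowest on pancreas replicate 1 (17.7%) and the Lgr5-sorted arrays (21.5 and 18.5%). On Lgr5-sorted arrays 5 and 7 of the 41 carriers were above background, on the DM array 11, on EM arrays 20 and 8, on duct arrays 24 and 15, and on adult liver arrays 23 and 28. Marker lists matched the labels of hepatocytes (10 of 10 hepatocyte markers above background, mean log2 ratio 5.94 to 7.49) and of sorted duct cells (9 to 10 of 10 duct markers, 1.21 to 1.5). The duct arrays also carried 8 of 8 endothelial markers, at 3.56 to 5.11, and 6 to 9 of 10 hepatocyte markers, at 0.82 to 0.98. On the Lgr5-sorted arrays, 2 of 10 duct markers and 7 to 8 of 8 macrophage markers were above background (macrophage mean 5 to 7.38). So were 4 to 7 of 10 hepatocyte markers (mean 1.27 to 1.6) and 6 to 7 of 8 endothelial markers (1.61 to 4.02). Lgr5, Krt19 and Epcam were above background on neither array. These arrays are called Lgr5-sorted by their label only. In hepatocytes the macrophage markers stood at 0.48 to 0.62, in adult liver at 2.6 to 3.41 and in EM organoids at -1.88 to -1.86. Skeletal muscle markers averaged 3.46 to 4.34 in brown and 0.93 to 4.61 in white adipose tissue, and adipocyte markers 4.68 to 5.42 in muscle. The part of these signals in the tissue comparisons was not tested. In bulk RNA, fewer cells of a type and less RNA per cell cannot be told apart.

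Levels are log2 ratios of sample to reference, with 0 for equal signal, and compare groups within a gene only. Changes are differences of these ratios ± standard error (SE) from 1 limma model over all 28 arrays. A call needed an adjusted p (Benjamini-Hochberg) below 0.05 together with a log2 change of 1 or more in size, and "rose" and "fell" are used for called genes only. Where the lower group had the gene above background on no array, its low level was not measured. A bound ("at least N-fold") then follows the change, computed from the Cy3 signal alone with the low signals raised to percentile 5 of the detected probes of each array. Where this bound in Cy3 came out larger than the change in the ratio it is not given, and "low level unmeasured" stands in its place. The labels call the arrays of a group biological replicates, except DM. Whether they came from separate animals is not stated, so p-values measure the spread between arrays.

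**Figure D1:**
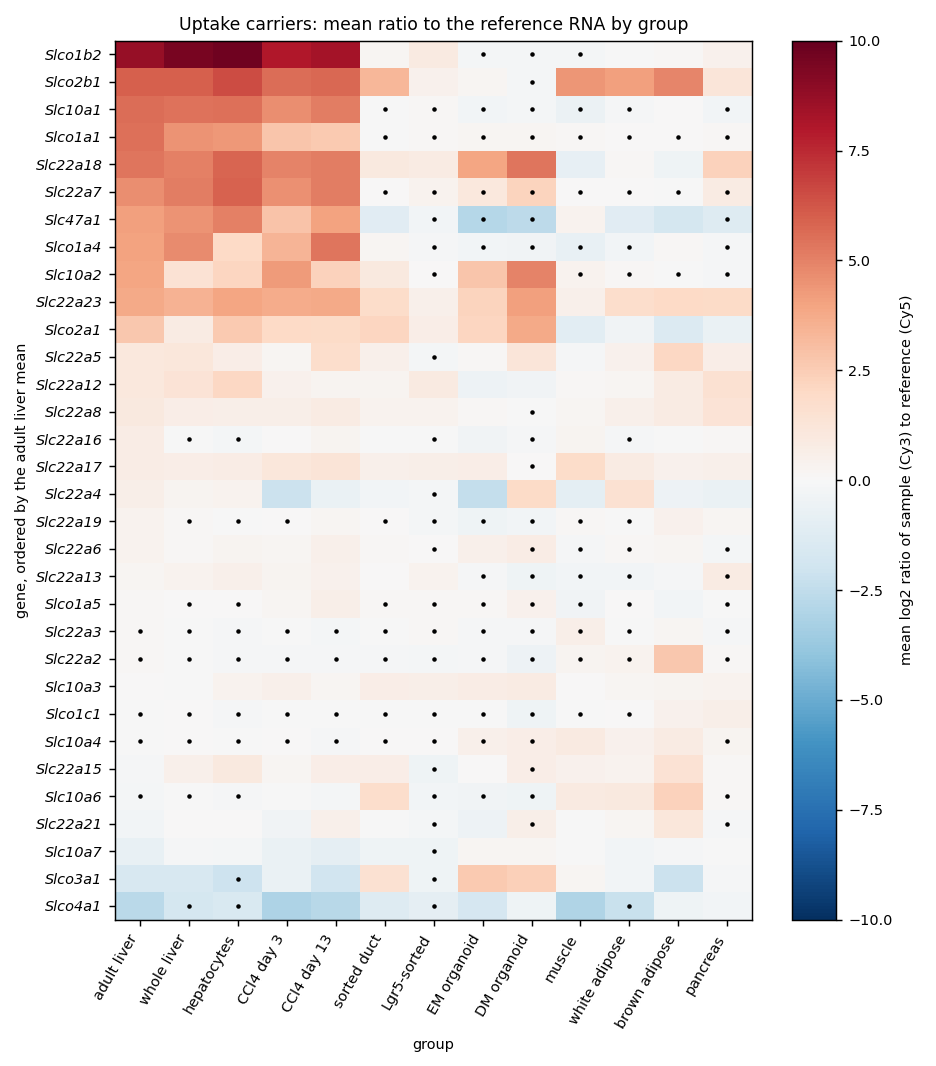
Mean log2 ratio of sample to reference for 32 tested carriers (rows, ordered by adult liver) in the 13 groups (columns). Black dots mark groups with no array above background. The rows of Slco1b2, Slc10a1 and Slco1a1 are red in the 5 liver and hepatocyte groups and pale elsewhere, while Slco2b1 extends to muscle and fat, Slc22a18 and Slc10a2 extend to organoids, and Slco3a1 is red in duct cells and organoids.

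The sodium-dependent bile acid carrier Slc10a1 (probe at chr12:82061470-82061529, mm9, the build of the files) read 5.73 and 5.39 in adult liver, 4.82 and 5.97 in whole liver tissue, with hepatocytes at 5.16 and 5.83. It stood at 4.74 and 4.52 at day 3 after CCl4 and at 5.1 and 5.17 at day 13. Every other group lay between -0.62 and 0.14, with 1 brown adipose array of these 18 arrays above background. The 10 liver and hepatocyte arrays and the other arrays therefore did not overlap.

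Slco1b2, the main OATP of hepatocytes and a carrier of conjugated bile acids and bilirubin, had the highest ratios of all members. Adult liver read 8.42 and 9.02, whole liver tissue 8.42 and 10.6, and the hepatocyte fraction 8.43 and 10.95, with the second array of whole liver and hepatocytes well above the first. It was 8.01 and 8.07 at day 3 and 7.86 and 8.74 at day 13. Outside these groups the highest value was 1.65, on Lgr5-sorted replicate 1, and the other Lgr5-sorted array read 0.2. Pancreas replicate 1 was an outlier spot and was left out for this gene, so its pancreas value rests on 1 array (0.44).

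Slco1a1, an OATP of broad specificity, read 5.33 and 5.71 in adult liver, 4.52 and 4.5 in whole liver tissue, with hepatocytes at 4.06 and 4.69. After CCl4 it read 3.11 and 2.42 at day 3, and 4.17 and 1.06 at day 13. The day 13 arrays lay farther apart than those of any other group. No array outside these groups was above background for it. Its close relative Slco1a4 read 4.32 and 3.8 in adult liver, 2.38 and 1.57 in hepatocytes, 3.36 and 6.09 in whole liver, 3.52 and 3.28 at day 3 and 5.1 and 5.57 at day 13. Here the highest values were at day 13 and on whole liver replicate 2. The Y-linked gene Ddx3y was looked at after its values were known. It was below background on whole liver replicate 2 (-0.69) and the day 13 arrays (-1.86 and -1.71), and above it on the other liver and hepatocyte arrays (1.37 to 2.35). The part of the animals' sex in the values of Slco1a1 and Slco1a4 was not tested.

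Slco2b1, an OATP of steroid sulfates and drugs, was high in liver but not restricted to it. Adult liver read 5.93 and 6, hepatocytes 5.88 and 7.22, and whole liver 5.72 and 6.16. Muscle followed at 4.6, 4.37 and 4.32, brown adipose tissue at 4.9, 4.81 and 4.89, and white adipose tissue at 3.89, 3 and 5.46. Endothelial markers averaged 3.24 to 3.63 in muscle, 3.48 to 3.72 in brown and 2.01 to 3.95 in white adipose tissue, and their part was not tested. Duct cells read 2.77 and 3.86, beside their endothelial marker mean of 3.56 to 5.11, whose part in this level was not tested. EM organoids (0.35 and -0.02), the DM organoid (-0.19) and Lgr5-sorted cells (0.22 and 0.62) were lowest, and their arrays did not overlap with those of duct cells, muscle or fat.

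Slc22a7 (OAT2), an organic anion carrier of hepatocytes, had the same broad division and read 4.51 and 4.74 in adult liver, 4.97 and 5.33 in whole liver tissue and 5.15 and 6.67 in the hepatocyte fraction. It was above background only on the 10 liver and hepatocyte arrays, the lowest of them at 4.42.

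Slc47a1 read 3.96 and 4.18 in adult liver, 3.99 and 4.93 in whole liver tissue, with hepatocytes at 4.9 and 5.22. It was 2.78 and 2.89 at day 3, and 4.03 and 4.05 at day 13. The reference held this transcript on every array, and groups low in it read below 0: -1.21 and -1.12 in duct cells, -3.09 and -2.63 in EM organoids and -2.65 in the DM organoid. Muscle was nearest to liver, at 0.12, 0.29 and 0.64.

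Slc22a18, a carrier of the imprinted gene cluster on distal chromosome 7, differed from the other liver carriers in the organoids. It read 5.32 and 5.43 in adult liver and 5.49 and 6.19 in hepatocytes, but also 3.53 and 4.43 in EM organoids and 5.39 in the DM organoid. Duct cells were at 1.2 and 0.77, Lgr5-sorted cells at 0.92 and 0.7, pancreas at 2.55 and 2.08, and muscle and fat between -0.97 and 0.24. Slc22a23, an orphan carrier, read 3.82 and 3.67 in adult liver, 3.97 and 3.97 in hepatocytes, 1.94 and 1.8 in duct cells, 2.06 and 2.38 in EM organoids and 4.12 in the DM organoid. The DM organoid thus lay within the range of adult liver and hepatocyte arrays for Slc22a18, and above the highest of them for this probe of Slc22a23. By the other probe of Slc22a23 it lay within that range, at 3.73 against 3.59 and 3.87 in adult liver and 3.59 and 3.6 in hepatocytes.

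**Figure D2:**
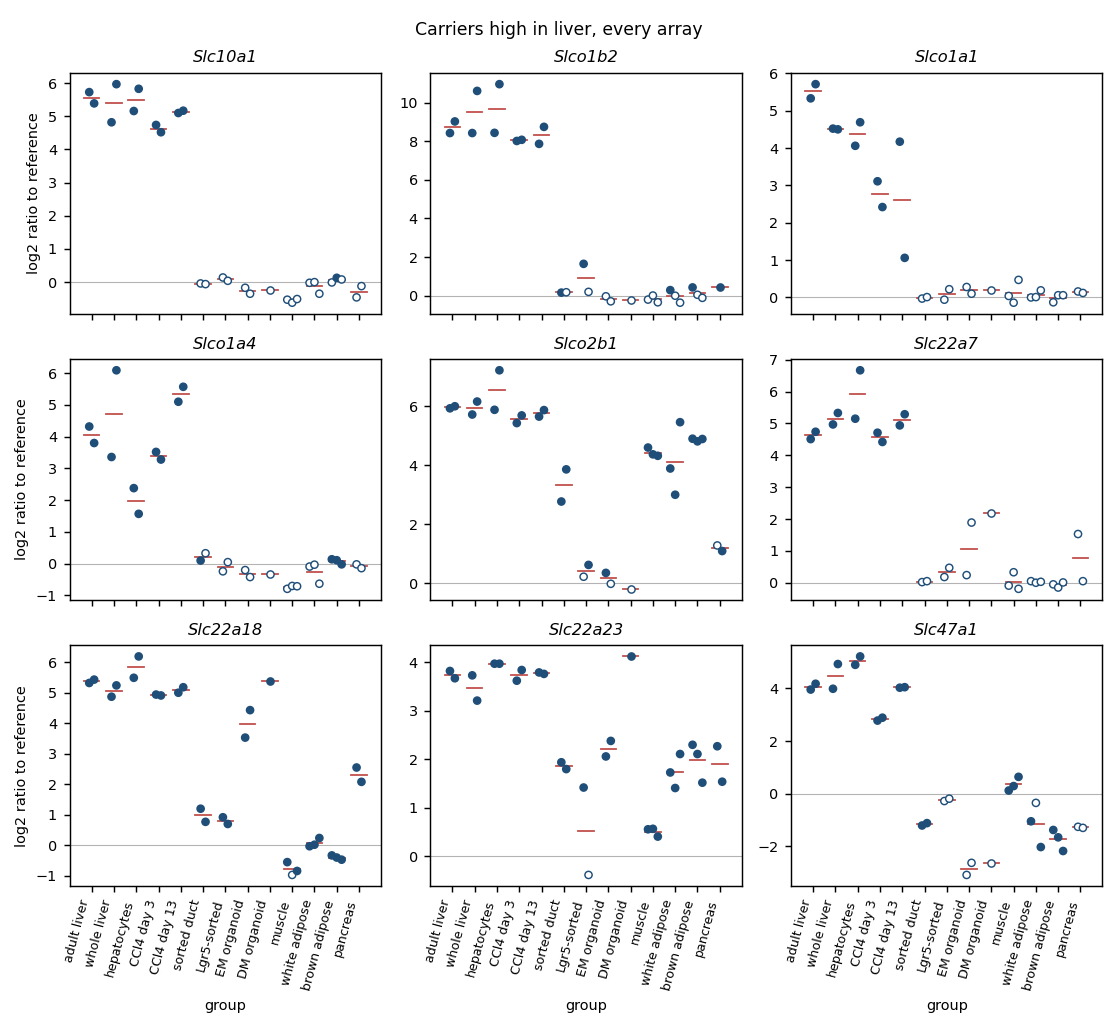
Log2 ratio to the reference (vertical axes, a separate scale for each gene) of 9 carriers on every array of the 13 groups. Filled points are arrays with the gene well above background, open points are not, and red bars are group means. For Slc10a1, Slco1b2, Slco1a1, Slco1a4 and Slc22a7 the 10 liver and hepatocyte arrays lie apart from all others, while Slco2b1 stays at 3 to 5.46 in muscle and fat and Slc22a18 at 3.53 to 5.39 in organoids.

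Slc10a2 varied among the undamaged livers themselves. Adult liver read 3.13 and 4.72 and whole liver 2.07 and 0.74, with hepatocytes at 1.75 and 2.55 and duct cells at 0.79 and 1.11. Liver was at 4.38 and 4.05 at day 3 and 2.72 and 1.84 at day 13, EM organoids at 2.53 and 2.99, and the DM organoid at 4.95. It was not above background in Lgr5-sorted cells, muscle, fat or pancreas. The reference was above background on only 2 of 28 arrays for this probe.

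Slco3a1, an OATP of prostaglandins and thyroid hormone, had the opposite pattern to the hepatocyte carriers. EM organoids read 2.37 and 2.85, the DM organoid 2.38 and duct cells 0.72 and 2.4. Adult liver read -1.95 and -1.29, whole liver -1.46 and -1.76, and hepatocytes -2.37 and -1.71 without being above background. The organoid arrays did not overlap with any liver, muscle, fat or pancreas array. Slco2a1, the prostaglandin transporter, read 2.47 and 2.92 in adult liver, 2.56 and 2.72 in hepatocytes, 1.11 and 0.47 in whole liver, 2.45 and 1.85 in duct cells, 2.03 and 2.28 in EM organoids and 3.75 in the DM organoid. Slco4a1, an OATP of thyroid hormone, was below the reference in most groups, from -3.35 to -0.95 in liver, muscle and white fat, and read 0.04, -1.57 and 0.28 in brown fat and -0.41 in the DM organoid.

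Slc22a4 (OCTN1), the ergothioneine carrier, read 0.66 and 0.48 in adult liver and 0.74 and -0.02 in hepatocytes. It was lowest in EM organoids (-2.53 and -2.28) and at day 3 after CCl4 (-2.21 and -2.09), and highest in the DM organoid (1.94) and white adipose tissue (1.55, 1.24 and 1.85). Slc22a5 (OCTN2), which supplies cells with carnitine for fatty acid oxidation, read 1.1 and 0.95 in adult liver, 0.07 and 0.28 at day 3, 1.61 and 1.95 at day 13 and 2.19, 2.07 and 1.93 in brown adipose tissue. Slc22a21, the mouse carnitine carrier OCTN3, also had its highest ratios in brown fat, at 1.18, 1.14 and 1.12, against -0.23 and -0.37 in adult liver.

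Slc10a6 (SOAT), a carrier of sulfated steroids, read 1.6 and 1.95 in duct cells and 2.35, 2.43 and 2.05 in brown adipose tissue, and was not detected above background in any sample of undamaged liver, hepatocytes, Lgr5-sorted cells, organoids or pancreas. Slc22a2 (OCT2), the organic cation carrier of the kidney, was above background in brown adipose tissue alone, at 2.43, 2.65 and 2.94. Slc10a3 and Slc10a7, relatives without known bile acid transport, stayed between -0.06 and 0.87 and between -0.95 and 0.3 over all 28 arrays. By their brightest probes, Slc22a15 and Slc22a17 lay between -0.48 and 1.96 and between 0.06 and 1.85, highest in brown adipose tissue and in muscle. A second probe of Slc22a15 was highest in adult liver (2.59 and 3), against 1.01, 1.19 and 0.83 in brown adipose tissue. The second probe of Slc22a17 was highest on EM replicate 2 (2.35) and in DM (2.29), above background on neither. Slco1a5, Slco1c1 and Slc22a3 never exceeded 0.66 where they were above background. Slc22a12 (urate carrier), Slc22a8 and Slc22a6 (kidney organic anion carriers), Slc22a13, Slc22a16, Slc22a19 and Slc10a4 had group means between -0.54 and 2.05.

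**Figure D3:**
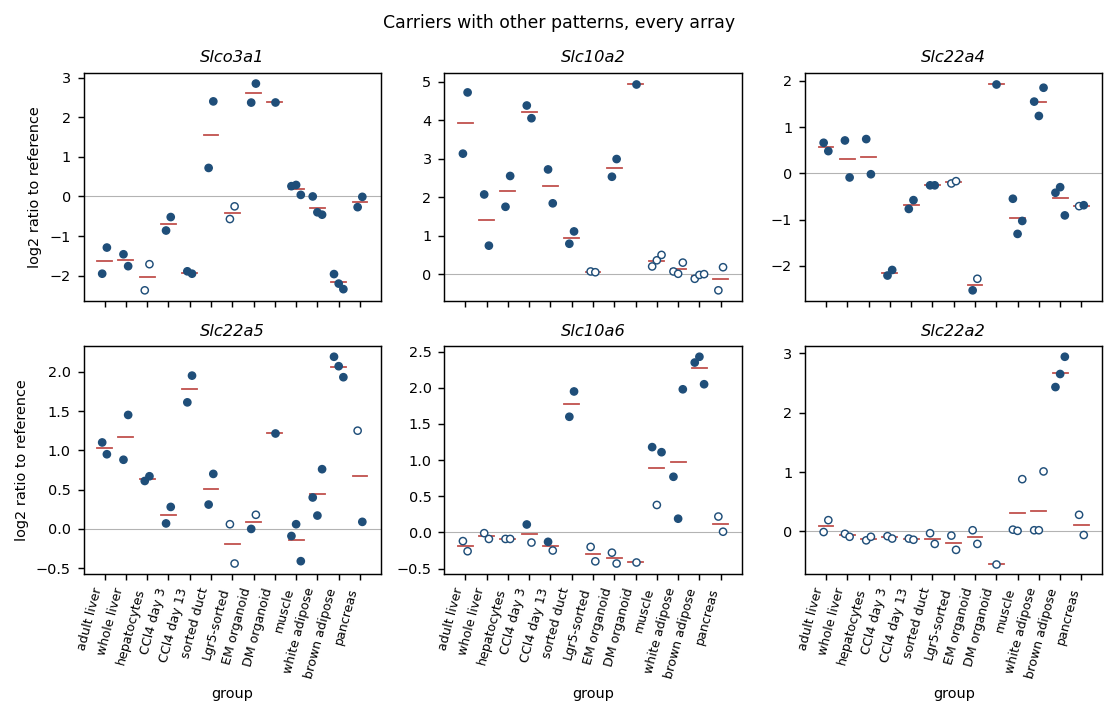
Log2 ratio to the reference (vertical axes, a separate scale for each gene) of 6 carriers on every array of the 13 groups, drawn as filled (well above background) or open points with red bars for group means. Slco3a1 is highest in organoids and duct cells, Slc10a2 is highest in the DM organoid (4.95), Slc22a4 is lowest in EM organoids and at day 3, and Slc22a2 is filled in brown adipose tissue only.

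Adult liver was set against the other wildtype tissues to ask which carriers mark the parent tissue of the organoids. Against muscle, the OATP Slco1b2 (8.9 ± 0.6, low level unmeasured, adjusted p = 3.19e-10), Slc22a18 (6.16 ± 0.24), Slc10a1 (6.11 ± 0.25, low level unmeasured) and Slco1a1 (5.4 ± 0.51, at least 14.4-fold) were among the largest rises. Slco3a1 (-1.82 ± 0.34), Slc22a17 (-1.09 ± 0.29) and Slc10a6 (-1.08 ± 0.33, at least 1.26-fold) fell. In all, 17 of 33 carriers were called (51.5%), 14 higher and 3 lower, where 35.5% of all genes were called (15.8% higher and 19.7% lower). The median change was 0.51 over the members and 0 over all genes. Slc10a6 lost its call without muscle replicate 1 (-0.94) or 3 (-0.97) or adult liver replicate 2 (-1.02), Slc22a17 without adult liver replicate 1 (-0.94) and Slco2b1 (1.54 with all arrays) without adult liver replicate 2 (1.5). The counts are over the 33 carriers that passed the filter on dim probes, not over all 41.

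Against white adipose tissue, 14 carriers were called, 12 higher and 2 lower (27.7% of all genes, 13.3% higher and 14.4% lower), with Slco1b2 (8.74 ± 0.6), Slc10a1 (5.69 ± 0.25, low level unmeasured), Slco1a1 (5.45 ± 0.51, at least 15.2-fold) and Slc22a18 (5.3 ± 0.24) leading and Slco3a1 (-1.33 ± 0.34) and Slc10a6 (-1.17 ± 0.33, at least 1.76-fold) lower. Slc10a6 lost its call without white adipose replicate 3 (-0.67) or adult liver replicate 2 (-1.11), and Slco3a1 without adult liver replicate 1 (-1). Slco2b1, called at 1.85, was 0.33 with the deposited log ratios (adjusted p = 0.742). The median change was 0.48 over the members and -0.01 over all genes.

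Against brown adipose tissue, 18 were called, 12 higher and 6 lower (29% of all genes, 13.2% higher and 15.8% lower). Among the leading rises were Slco1b2 (8.6 ± 0.6), Slc47a1 (5.82 ± 0.35), Slc22a18 (5.77 ± 0.24) and Slco1a1 (5.53 ± 0.51, at least 23.1-fold). Lower in liver than in brown fat were Slc22a2 (-2.59 ± 0.27, at least 2.87-fold), Slc10a6 (-2.47 ± 0.33, at least 2.44-fold), Slco4a1 (-2.26 ± 0.52), Slc22a15 (-1.57 ± 0.22), Slc22a21 (-1.45 ± 0.16) and the carnitine carrier Slc22a5 (-1.04 ± 0.27, adjusted p = 0.00394). A second probe of Slc22a15 gave the opposite sign (1.79 higher in liver) and a further one -1.69, so its direction is uncertain. Slc22a5 lost its call without brown adipose replicate 1 (-0.97) or adult liver replicate 2 (-0.96), and Slc22a4, called at 1.11, without brown adipose replicate 3 (0.93). The median member changed by 0.32 and the median gene by -0.03.

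Against pancreas, 15 were called, 13 higher and 2 lower (28.8% of all genes, 12.6% higher and 16.2% lower). Slco1b2 (8.28 ± 0.8), Slc10a1 (5.85 ± 0.27, at least 38-fold), Slco1a1 (5.38 ± 0.55, at least 7.27-fold) and Slc47a1 (5.36 ± 0.38, at least 22.7-fold) led, and Slco4a1 (-2.4 ± 0.56) and Slco3a1 (-1.48 ± 0.37) were lower, the latter not called without adult liver replicate 1 (-1.15). The prostaglandin carrier Slco2a1 was 3.36 ± 0.34 higher by its brighter probe and -0.39 by its other probe, which was not called. Adult liver shared no slide and no scan day with muscle, fat or pancreas, so batch and tissue cannot be told apart here. The median changes were 0.26 over the members and -0.07 over all genes. These 4 comparisons share the adult liver arrays.

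Sorted duct cells were compared with hepatocytes, the 2 epithelia of the liver. Of 33 carriers, 14 were called, 12 lower and 2 higher in duct cells, where 23.2% of all genes were called (11.4% lower and 11.8% higher). Slco1b2 (-9.52 ± 0.66), Slc47a1 (-6.22 ± 0.38), Slc22a7 (-5.87 ± 0.47, low level unmeasured) and Slc10a1 (-5.54 ± 0.27, low level unmeasured, adjusted p = 5.01e-12) were among the largest falls. Slco2b1 fell less, by 3.24 ± 0.52, and Slco1a4 by 1.76 ± 0.5. Slco3a1 (3.6 ± 0.37, low level unmeasured, adjusted p = 1.51e-07) and Slc10a6 (1.87 ± 0.36, at least 3.17-fold) rose. The median member changed by -0.3 and the median gene by 0.

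The apical bile acid carrier Slc10a2 was lower in duct cells than in hepatocytes (-1.2 ± 0.43, adjusted p = 0.0389), and this call was lost without duct replicate 1 (-1.04), duct replicate 2 (-1.36) or hepatocyte replicate 2 (-0.81). The call of Slco1a4 was lost without duct replicate 1 (-1.65) or hepatocyte replicate 1 (-1.36), and that of Slco2b1 with the deposited log ratios (-1.57, adjusted p = 0.117). Each pair of arrays with the same number lay on 1 slide, and within both slides all 14 called carriers kept their sign. The same arrays gave the calls, so this is no independent check. Slc10a1, for example, was above background on neither duct array, and the endothelial, fibroblast (1.79 to 2.17) and cell isolation response (3.3 to 3.92) markers were high on both duct arrays. Their part in the higher values of Slco3a1 and Slc10a6 was not tested. Ddx3y was above background on both hepatocyte arrays (1.37 and 1.98) and on neither duct array (-0.6 and -0.78). The X-linked transcript Xist was above background on both duct arrays (0.62 and 3) and on neither hepatocyte array (-2.14 and -1.92). The part of this difference was not tested either.

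In the Lgr5-sorted arrays, 15 of 33 carriers differed from hepatocytes, 14 lower and 1 higher (21.2% of all genes were called, 9.64% lower and 11.6% higher). Slco1b2 (-8.76 ± 0.66), Slco2b1 (-6.13 ± 0.52), Slc22a7 (-5.58 ± 0.47, low level unmeasured) and Slc10a1 (-5.41 ± 0.27, at least 39-fold) were among the largest falls. The call that was higher, Slco3a1, was above background on none of the 4 arrays, so no change is given for it. All 15 kept their sign within both slides, which is no independent check because the same arrays gave the calls. The medians were -0.23 over the members and 0.05 over all genes. Slc22a12 rests on single arrays: without Lgr5-sorted replicate 1 its change went from -1.17 to -0.25, and it also lost its call without either hepatocyte array (-1.27 and -1.06) or with slide as a block (adjusted p = 0.0842). The call of Slco1a4 (-2.08, at least 2.03-fold) was lost without hepatocyte replicate 1 (-1.67). The dim arrays and their macrophage markers (5 to 7.38) move with these differences, and their part was not tested. Ddx3y was above background on both hepatocyte arrays (1.37 and 1.98) and on neither Lgr5-sorted array (-0.25 and -0.58). Xist was above background on both Lgr5-sorted arrays (0.26 and 1.49) and on neither hepatocyte array (-2.14 and -1.92). The part of this difference was also not tested. The Lgr5-sorted cells came from mice given CCl4, which the label of the hepatocytes does not name, so injury and cell fraction cannot be told apart.

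Hepatocytes differed from whole liver in 2 of 33 carriers (0.797% of all genes were called, 0.417% higher and 0.38% lower). Slco1a4 fell by 2.75 ± 0.5 (adjusted p = 0.00898) and Slco2a1 rose by 1.85 ± 0.34 (adjusted p = 0.00891). Within slides, Slco1a4 was -0.98 for replicate 1 and -4.52 for replicate 2, and Slco2a1 1.44 and 2.25. The other probe of Slco2a1 differed less, at 1.74 and 1.31 in hepatocytes and 1.01 and 0.55 in whole liver. Both calls were lost without hepatocyte replicate 2 (-2.34 and 1.77) or whole liver replicate 2 (-1.38 and 1.52), and with slide as a block (adjusted p = 0.0573 and 0.0579). With the deposited log ratios Slco1a4 was not called (-2.19, adjusted p = 0.114). Whole liver replicate 2 had Ddx3y below background (-0.69) and Xist at 2.53, against 1.98 and -1.92 on hepatocyte replicate 2, and the part of this was not tested. The bile acid carrier Slc10a1, the OATPs Slco1b2 and Slco1a1 and the cation exporter Slc47a1 were not called, and the median member changed by 0.09 (0.01 over all genes).

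**Figure D4:**
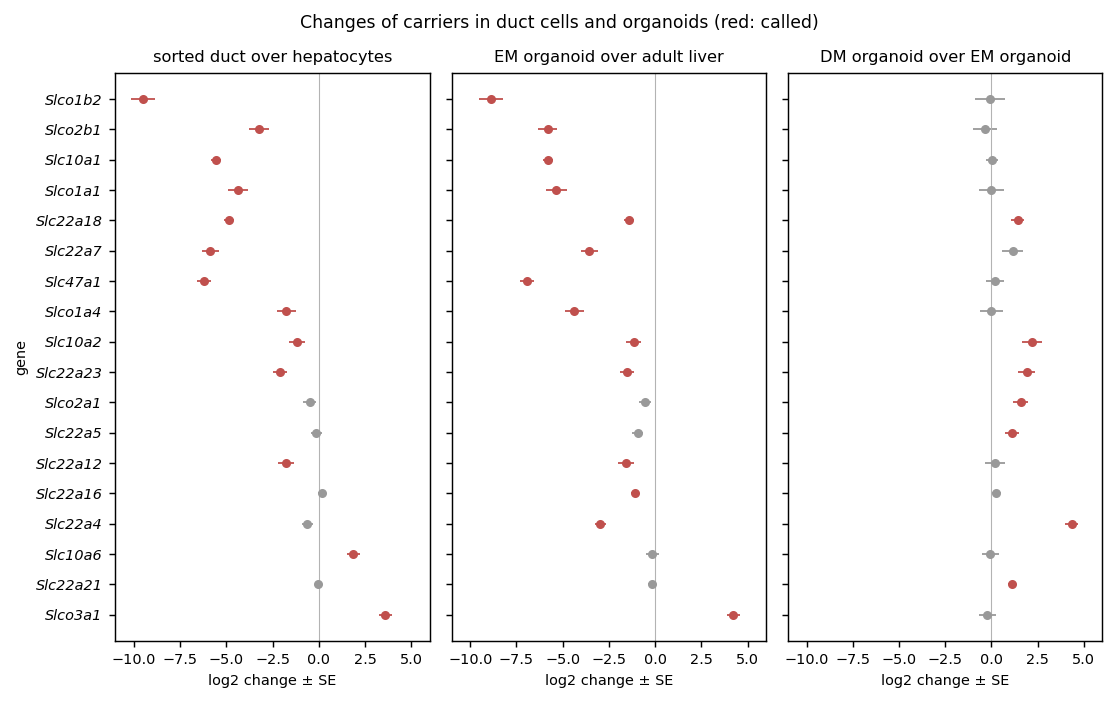
Log2 change (horizontal axes, bars are 1 SE) of 18 carriers called in at least 1 of 3 comparisons: sorted duct cells over hepatocytes, EM organoids over adult liver, and the DM organoid over EM organoids. Red points are called and grey points are not. Slco1b2, Slc10a1, Slco1a1 and Slc47a1 lie far to the left in the first 2 panels. In the third they lie near 0, but were above background in neither medium. Slc22a18 and Slc22a23 lie to the right of 0 there, and Slc22a4 lies farthest to the right (4.34).

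EM organoids were compared with adult liver to ask how far the cultures carry the uptake genes of their parent tissue. Several carriers high in hepatocytes were low in the cultures. Slco1b2 (-8.88 ± 0.66, at least 404-fold, adjusted p = 1.79e-09), Slc47a1 (-6.93 ± 0.38, at least 42.6-fold), Slc10a1 (-5.82 ± 0.27, at least 56.4-fold) and Slco2b1 (-5.8 ± 0.52) were among the largest falls. Slco3a1 rose by 4.23 ± 0.37 (adjusted p = 1.08e-08). In all, 15 of 33 were called, 14 lower and 1 higher, where 31.8% of all genes were called (17.5% lower and 14.3% higher). The median member changed by -0.85 and the median gene by -0.09. Slc22a18 fell by 1.39 ± 0.27, and was -0.94 without EM replicate 1, under the fold minimum. Its second probe fell by 2.54 ± 0.41.

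The call of Slc10a2 in EM organoids depended on which liver stood for the undamaged tissue. Against adult liver it was -1.17 ± 0.43 (adjusted p = 0.032), and against whole liver 1.35 ± 0.43 (adjusted p = 0.015). Without adult liver replicate 2 it was -0.37 and without EM replicate 1 -0.94, both not called, and its second probe read -0.11. Slc22a12 (-1.56 ± 0.43) lost its call without adult liver replicate 2 (-1.21), and Slc22a16 (-1.1 ± 0.22) without adult liver replicate 2 (-1) or EM replicate 2 (-0.95). Against whole liver Slc22a16 was -0.32 (adjusted p = 0.274). A second probe of Slc22a17, not the brighter one, was 1.7 higher in EM organoids where the brighter read -0.02. Ddx3y was above background on adult liver and not on EM arrays, and its part was not tested.

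The DM organoid, a single array whose spread is assumed to equal that of the other groups, was also low in several hepatocyte uptake carriers. Against adult liver 12 of 33 were called, 9 lower and 3 higher (28.1% of all genes, 14.4% lower and 13.8% higher). Slco1b2 (-8.94 ± 0.8, at least 227-fold), Slc47a1 (-6.73 ± 0.47, at least 23.9-fold), Slco2b1 (-6.16 ± 0.64, at least 44.6-fold), Slc10a1 (-5.79 ± 0.33, at least 31.6-fold) and Slco1a1 (-5.33 ± 0.68, at least 6.06-fold) fell most. Slco3a1 (4 ± 0.45), Slco4a1 (2.27 ± 0.69) and Slc22a4 (1.37 ± 0.36) rose. Slco4a1 lost its call without adult liver replicate 1 (2.08) or against whole liver (1.35), and Slc22a12 (-1.37 ± 0.52) without adult liver replicate 2 (-1.02). Slc22a18 (0.02) and Slc22a23 (0.37) were not called. The medians were -0.22 over the members and -0.08 over all genes. No slide or scan day held both DM and adult liver, so this comparison does not separate batch from sample type.

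Between the media, 7 of 33 carriers were called, all higher in DM, where 10.2% of all genes were called, 6.21% higher and 3.99% lower, with medians of 0.19 over the members and 0.04 over all genes. Slc22a4 rose by 4.34 ± 0.36 (adjusted p = 5.44e-08), Slc10a2 by 2.19 ± 0.53, Slc22a23 by 1.9 ± 0.48, Slco2a1 by 1.59 ± 0.41 and Slc22a18 by 1.41 ± 0.33 (adjusted p = 0.00627). Slc22a5 (1.13 ± 0.37, adjusted p = 0.0495) and Slc22a21 were the other calls. Slc22a21 was above background on 1 EM array and not in DM, so its higher DM level was not measured and no change is given. The sinusoidal carriers Slc10a1, Slco1b2, Slco1a1 and Slco1a4 were above background in neither medium, so no change is given. The Y-linked genes Ddx3y (0.13) and Eif2s3y (1.87) were above background in DM. On the EM arrays they were not (Ddx3y -2.93 and -2.45, Eif2s3y -2.96 and -2.64). The X-linked transcript Xist was above background on both EM arrays (-2.09 and -0.52) and not in DM (-2.64). The part of this difference in the changes between media was not tested.

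Most of these calls were lost without EM replicate 1, which left 1 array against 1. Without it Slc10a2 (1.96), Slc22a23 (1.74), Slco2a1 (1.47), Slc22a18 (0.96) and Slc22a5 (1.04) were not called, and with slide as a block the same 5 were not called (Slc10a2 adjusted p = 0.0588). Slc22a5 (1.22) and Slc22a21 lost their calls without EM replicate 2. With the deposited log ratios Slc22a4 was the 1 carrier called. On the slide that held DM and EM replicate 2, all 7 kept their sign, but these arrays also gave the calls, so this is no independent check.

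Against sorted duct cells, EM organoids differed in 7 of 33 carriers, 3 higher and 4 lower (26.4% of all genes, 12.3% higher and 14.1% lower). Slc22a18 rose by 3 ± 0.27 (adjusted p = 3.9e-08), Slc10a2 by 1.81 ± 0.43 and Slco3a1 by 1.05 ± 0.37. Slco2b1 fell by 3.15 ± 0.52, Slc22a4 by 2.14 ± 0.29, Slc10a6 by 2.13 ± 0.36 (at least 3.06-fold) and Slc47a1 by 1.69 ± 0.38 (at least 1.52-fold). Over the members the median was -0.14, and over all genes -0.03. The second probe of Slc22a18 read 0.4 and was not called. The rise of Slc10a2 turned to -0.32 with Cy3 alone, and was not called with the deposited log ratios (1.76, adjusted p = 0.0628) or with no background correction (1.22, adjusted p = 0.0686). Slco3a1 lost its call without duct replicate 1 (0.21) or EM replicate 2 (0.81). The endothelial markers were above background on both duct arrays (8 of 8) and on EM arrays in 0 to 2 of 8, and their part in the falls of Slco2b1 and Slc10a6 was not tested. EM organoids and duct cells also had no slide or scan day in common, and their comparison does not separate batch from sample type.

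Liver after CCl4 was compared with adult liver to follow the carriers through injury and regrowth. At day 3, 3 of 33 were called, all lower, where 8.7% of all genes were called, 3.41% lower and 5.28% higher. Slco1a1 fell by 2.76 ± 0.55 (adjusted p = 0.00178), Slc22a4 by 2.72 ± 0.29 (adjusted p = 2.28e-06) and Slc47a1 by 1.24 ± 0.38 (adjusted p = 0.0329). Slc10a1 and Slco1b2 were not called, and the median member changed by -0.2 (0.01 over all genes). The call of Slc47a1 was lost without any single one of the 4 arrays (-1.13 to -1.35). With the deposited log ratios Slc22a4 was the 1 carrier called, and Slco1a1 (-1.44, adjusted p = 0.267) was not.

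At day 13, 2 of 33 were called, both lower (1.44% of all genes, 0.867% lower and 0.572% higher): Slco1a1 (-2.91 ± 0.55, adjusted p = 0.0074) and Slc22a4 (-1.24 ± 0.29, adjusted p = 0.0294). The medians were -0.13 over the members and 0.02 over all genes. The fall of Slco1a1 came with arrays at 4.17 and 1.06, and its call was lost without adult liver replicate 2 (-2.71, adjusted p = 0.0686). The call of Slc22a4 was lost without any single one of the 4 arrays (-1.15 to -1.34), and with the deposited log ratios neither gene was called (adjusted p = 0.3 and 0.341). Ddx3y was below background on both day 13 arrays (-1.86 and -1.71) and above it in adult liver (1.72 and 2.16), and skeletal muscle markers averaged 3.09 and -0.19 at day 13 and -0.76 and -0.66 in adult liver. The part of these was not tested. The CCl4 and adult liver arrays shared no slide or scan day, so batch and treatment cannot be told apart.

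The CCl4 arrays lay together on 1 slide, and 5 of 33 carriers differed between day 13 and day 3, 3 higher and 2 lower (5.65% of all genes, 2.13% higher and 3.52% lower). Slco1a4 (1.93 ± 0.5, adjusted p = 0.0182), Slc22a5 (1.61 ± 0.3, adjusted p = 0.00132) and Slc22a4 (1.48 ± 0.29, adjusted p = 0.0021) rose, and Slc10a2 (-1.94 ± 0.43, adjusted p = 0.00591) and Slco3a1 (-1.24 ± 0.37, adjusted p = 0.0417) fell. Slco1a4 (1.7 to 2.17) and Slco3a1 (-1.41 to -1.06) lost their calls without any single one of the 4 arrays, and Slc10a2 without day 13 replicate 2 (-1.5) or day 3 replicate 1 (-1.77). With the deposited log ratios Slc22a4 was the 1 carrier called, and Slc10a2 was at -0.35. The median member changed by 0.17 and the median gene by 0.01. Ddx3y was above background on both day 3 arrays and on neither day 13 array. Fibroblast markers averaged 0.9 to 1.05 at day 3 and -0.36 to -0.2 at day 13, and skeletal muscle markers reached 3.09 on 1 day 13 array. The part of these was not tested.

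Other genes of the pathway were counted from 3 lists, and the share of all genes called in a comparison is the measure for each count. It was 17.5% lower and 14.3% higher in EM organoids over adult liver, 14.4% lower and 13.8% higher in DM over adult liver, 6.21% higher in DM over EM, and 12.3% higher and 14.1% lower in EM over duct cells. It was 11.4% lower in duct cells and 9.64% lower in Lgr5-sorted cells over hepatocytes, 3.41% lower and 5.28% higher at day 3, 0.867% lower at day 13, 2.13% higher at day 13 over day 3, and 12.6 to 15.8% higher in adult liver over the other tissues. Of 12 tested bile acid and drug exporters, 9 were lower and 1 higher in EM organoids than in adult liver, led by the bile salt export pump Abcb11 (-6.72 ± 0.53, low level unmeasured) and the sterol transporter Abcg5 (-6.06 ± 0.51, at least 50.2-fold), with the cyclic nucleotide and bile acid exporter Abcc4 higher (4.14 ± 0.31). The median exporter changed by -3.22. Between media, 7 of 12 exporters rose in DM, most of all Abcg5 (4.42 ± 0.63, at least 7.66-fold) and the basolateral bile acid exporter subunit Slc51b (3.82 ± 0.36, at least 5.39-fold), with a median of 2.21. In duct cells against hepatocytes 8 of 12 fell, Abcb11 (-8.01 ± 0.53, low level unmeasured) and Abcg5 (-6.53 ± 0.51) most, and Abcc4 rose (2.09 ± 0.31). Exporters at day 3 after CCl4 gave 1 rise, Slc51b (2.78 ± 0.29, adjusted p = 1.82e-06), and 1 fall, Abcc6 (-1.63 ± 0.44). At day 13 the 1 call was a fall of Abcg2 (-1.63). Adult liver was higher than muscle, white fat and brown fat in 10 of 12 exporters each and than pancreas in 8, with 1 lower against brown fat. The other counts were 1 higher and 8 lower in Lgr5-sorted cells than in hepatocytes, 3 higher and 6 lower in DM than in adult liver, and 2 higher and 1 lower in EM organoids than in duct cells.

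Of 10 genes of bile acid synthesis and conjugation, all 10 were lower in EM organoids and in DM than in adult liver (medians -4.5 and -4.56), and 0 differed between the media by limma, with 0 at an unadjusted p under 0.05 (median 0.1). All 10 were also higher in adult liver than in each of muscle, fat and pancreas, and 9 of 10 were lower than in hepatocytes both in duct cells and in Lgr5-sorted cells. The conjugating enzyme Baat (-7.32 ± 0.29, at least 88-fold) and the oxysterol hydroxylase Cyp7b1 (-6.65 ± 0.94, low level unmeasured) fell most in EM organoids. At day 3 after CCl4, 3 of 10 fell, the cholic acid enzyme Cyp8b1 (-4.33 ± 0.48) most and the 5-beta-reductase Akr1d1 (-1.33 ± 0.35) next. From day 3 to day 13, 3 of 10 rose, Cyp8b1 by 2.79. Between hepatocytes and whole liver, Cyp7a1, the rate-limiting enzyme of bile acid synthesis, was lower in hepatocytes (-2.34 ± 0.48, adjusted p = 0.0193, where 0.38% of all genes were lower).

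Of 14 tested regulators, 9 were lower in EM organoids than in adult liver, led by the bile acid receptor Nr1h4 (-6.14 ± 0.4) and Nr1i2, a receptor of xenobiotics (-5.19 ± 0.33, at least 15-fold). In DM 3 of 14 were higher than in EM, among them Nr1h4 (3.9 ± 0.49) and Nr1i2, which was above background in neither medium and so has no change given. In duct cells 11 of 14 were lower than in hepatocytes, among them the FGF coreceptor Klb (-3.94 ± 0.6). EM organoids had more Foxa2 (2.54 ± 0.51) and less Nr1h4 (-2.55 ± 0.4) and Nr5a2 (-2.3 ± 0.52, at least 3.62-fold) than duct cells, with 4 higher and 2 lower in all. After CCl4, 0 of 14 regulators were called by limma against adult liver, where 1 at day 3 and 0 at day 13 had an unadjusted p under 0.05 (medians -0.34 and -0.06). Adult liver was higher than muscle and white fat in 12, than brown fat in 11 and than pancreas in 10 of 14, and 13 were lower in Lgr5-sorted cells than in hepatocytes.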

How the data were processed

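Total RNA of 28 mouse samples was labelled with Cy3 and hybridised against a Cy5-labelled mouse reference RNA. Per the file headers, the authors' files hold median spot and background intensity values and flags from Agilent Feature Extraction (10.5.1.1 in the headers, 8.5.1.1 in the submitters' processing notes), and a log10 ratio of Cy5 to Cy3. The deposited value table equals that log10 ratio (largest difference 0). The other deposited columns used are spot flags and probe names, whose build is mm9 per the file headers.

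The median intensities were background-corrected (normexp, offset 50) and loess-normalised within arrays in limma 3.58.1 (R 4.3.3), with 1639 control spots of 45018 at weight 0 and outlier spots (0.495%) left out, and turned to log2 Cy3 over Cy5. The loess step centres each array's ratios, so a shift shared by most genes of a sample is removed. Spots of 1 probe were averaged. A probe was kept (31081 were) when 2 or more arrays had it well above background in Cy3, and the brightest stood for its gene. The 21331 genes, 16579 named by a RefSeq match, were fitted with 1 mean per group (15 residual and 4.42 prior degrees of freedom) and adjusted by Benjamini-Hochberg. Precision is limited by the number of arrays. The arrays came from 13 slides and 9 scan days.

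Bounds used Cy3 after loess and Aquantile normalisation and are open to dye bias, since dyes were not swapped. The members and gene lists were chosen with earlier results of these data known. Array values are given for a fixed set of key members. In each comparison up to 5 rises and 5 falls are named, and up to 4 genes of each pathway list. Alternatives changed the normalisation, background correction, filter, probe rule, fold minimum, batch, replicate number, arrays in the fit and undamaged liver. The fit was tested on simulated data. Results of some members and regulators are not reported here, and the counts include them.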

Additional observations from a re-analysis of the deposited data

How the results depend on the processing

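The counts of carriers called stayed within 1.5 times under all 16 alternatives for the 4 tissue comparisons, duct cells and Lgr5-sorted cells against hepatocytes, and both organoids against adult liver. Leaving out 1 array at a time gave 15 to 18 (muscle), 13 to 15 (white fat), 17 to 18 (brown fat), 14 to 16 (pancreas), 12 to 14 (duct cells), 13 to 15 (Lgr5-sorted), 14 to 16 (EM) and 11 to 12 (DM). The smaller comparisons moved, and the cause was not tested. With the deposited log ratios 1 carrier was called between hepatocytes and whole liver, 1 between the media, 1 at day 3, 0 at day 13 (3 at an unadjusted p under 0.05, limma) and 1 between the CCl4 days. With Cy3 alone, scaled to each array's upper quartile, 0 were called between hepatocytes and whole liver (4 unadjusted), 0 at day 13 (5 unadjusted), and 22 between EM organoids and duct cells, 2 higher and 20 lower, where the median of all genes was -0.95. A fold minimum of 1.5 on the log2 scale left 4 (media), 1 (day 13) and 3 (CCl4 days), and no minimum gave 6 at day 3. Fitting the 2 groups alone gave 0 between hepatocytes and whole liver (2 unadjusted) and 1 at day 13. Slide as a fixed block, chosen after seeing the data, gave 0 between hepatocytes and whole liver (5 unadjusted) and 3 between the media. Scan day as a random block gave 1 and array weights 4 at day 13. Against whole liver in place of adult liver, 5 were called at day 3 and 1 at day 13. Without 1 array, counts were 0 to 2 (hepatocytes against whole liver), 3 to 6 (media), 6 to 9 (EM against duct cells), 2 to 3 (day 3), 0 to 2 (day 13) and 2 to 4 (CCl4 days). For duct, hepatocyte, whole liver and Lgr5-sorted arrays the replicate number goes with slide and scan day (correlations of deviations 0.1 to 0.44), and elsewhere arrays share only a number (-0.11 to 0.3). The fit with replicate number as a block gave 16, 14, 19, 15, 14, 2, 14, 15, 11, 6, 7, 3, 2 and 6 calls, in the order of the report.

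Of 2771 single-carrier values under alternatives, 2562 kept direction and call, 207 lost the call and 2 turned: Slc10a2 in EM organoids against whole liver (1.35) and, with Cy3 alone, against duct cells (-0.32). Across settings, the median gene moved with Cy3 alone by -0.95 to 0.52. Signal over background on the dim Lgr5-sorted, DM and pancreas arrays limits what can be measured there.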

Other observations

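The arrays also carry 5 genes of the Slc22 family under older names that the name rule does not match, and 4 of them were tested. They are named here after their values were seen. Slc22a26, an organic anion carrier of the family, read 6.59 and 6.87 at day 13 after CCl4 and 6.83 on whole liver replicate 2. The other liver and hepatocyte arrays read 0.1 to 1.17. Slc22a29 gave the same division, at 2.45, 3.37 and 3.16 against -0.51 to 1.33. The same 3 arrays were those with Ddx3y not above background (-1.86, -1.71 and -0.69) and with the X-linked transcript Xist at 2.26, 2.43 and 2.53, where Xist on the other 7 lay between -4.67 and -1.84. The part of the animals' sex, which the labels do not give, was not tested. Slc22a28 and Slc22a30 were above background on all 10 liver and hepatocyte arrays, at 5.18 to 7.08 and 4.6 to 6.8, without that division.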
